A study of Mus musculus with 10 samples.

Results

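The Notch genes described here are 2 ligands (Dll1 and Jag1), 3 receptors (Notch1, Notch2 and Notch3), the DNA-binding factor Rbpj and 4 transcription factors of the Hes and Hey families (Hey1, Heyl, Hes1 and Hes6), measured in mouse C2C12 myoblasts. They were taken as the non-control probes that the array files name after these 10 genes, 14 of 55681 probes. RNA came from cells transfected with 150 nM of a mimic of the microRNA miR-27a-3p (a manufactured RNA duplex whose active strand has the sequence of the mature microRNA, 6 samples), or with 150 nM of a scrambled sequence (4 samples). Both groups were collected 72 h after transfection with a cationic lipid reagent at an estimated efficiency of 60%, so a share of the cells in both groups was not transfected. C2C12 is an established line derived from mouse skeletal muscle that grows as myoblasts and can differentiate into myotubes. Untransfected cells were not analysed here.

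The 10 files came from 1 slide and hold 2 scans each of 5 array positions. Non-uniform spots fell on the same places of the slide in both files of a position (21 to 75 spots in common), while files of different positions had 0 in common. The 2 files of a position were averaged and counted as 1 replicate, which left 3 mimic arrays and 2 scrambled arrays. The labels describe every sample as its own transfection, and the sources used here do not show how 1 position could hold 2 of them, so the p-values describe how far these 5 arrays differ and part of that may be technical. The share of non-control spots well above background ran from 27.04% to 35.3% over the files, and 0 were saturated. A level below is the log2 signal of a probe minus the 75th percentile of the detected probes of its file, a difference is mimic minus scrambled in log2 units, and a gene is said to have risen or fallen only where the adjusted p of the limma model over all genes is under 0.05. Levels of different probes are not comparable with each other.

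Notch signalling passes between touching cells. A Delta or Jagged ligand on one cell binds a Notch receptor on its neighbour, the receptor is cut by an ADAM protease and then by gamma-secretase, and the freed intracellular domain joins RBPJ on DNA and switches on Hes and Hey genes, which encode transcriptional repressors. In skeletal muscle the pathway is known for holding satellite cells and myoblasts in an undifferentiated state, and its targets Hey1 and Heyl are known to be needed for the upkeep of satellite cells.

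The mature microRNA that the mimic supplies is given first because it is the only agent that differed between the groups. It is printed with its paralogue miR-27b-3p, from RefSeq on GRCm38.p6 (chr8:84208727-84208747 and chr13:63300760-63300780, both on the plus strand). The capitals mark the seed, bases 2 to 8.
mmu-miR-27a-3p: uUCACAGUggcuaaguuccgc
mmu-miR-27b-3p: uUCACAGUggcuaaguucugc
The seeds of both are identical, and the only difference over the 21 bases was C19U, with positions counted from 1 at the 5′ end of miR-27a-3p.

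After the mimic, the ligand Dll1 and the target Heyl fell, and no Notch gene rose. Of the 10 genes, 8 had a probe that cleared the background in 4 files or more and were tested. Of these 8, 2 fell and 6 did not pass the threshold. Of all 13137 genes and transcripts tested, 5.12% passed, 2.33% lower and 2.79% higher (306 and 366 genes, or 234 and 503 with the percentile taken over all probes). At an unadjusted p under 0.05, 3 of the 8 were lower and 2 higher, against 25.3% of all genes tested in either direction. The median difference of the 8 was -0.11, and that of all genes tested was -0.05. Dll1 and Heyl met the filter in all 4 scrambled files but only in some mimic files, and Jag1 met it through the mimic files, so for these 3 the filter itself leans towards a difference.

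**Figure D1:**
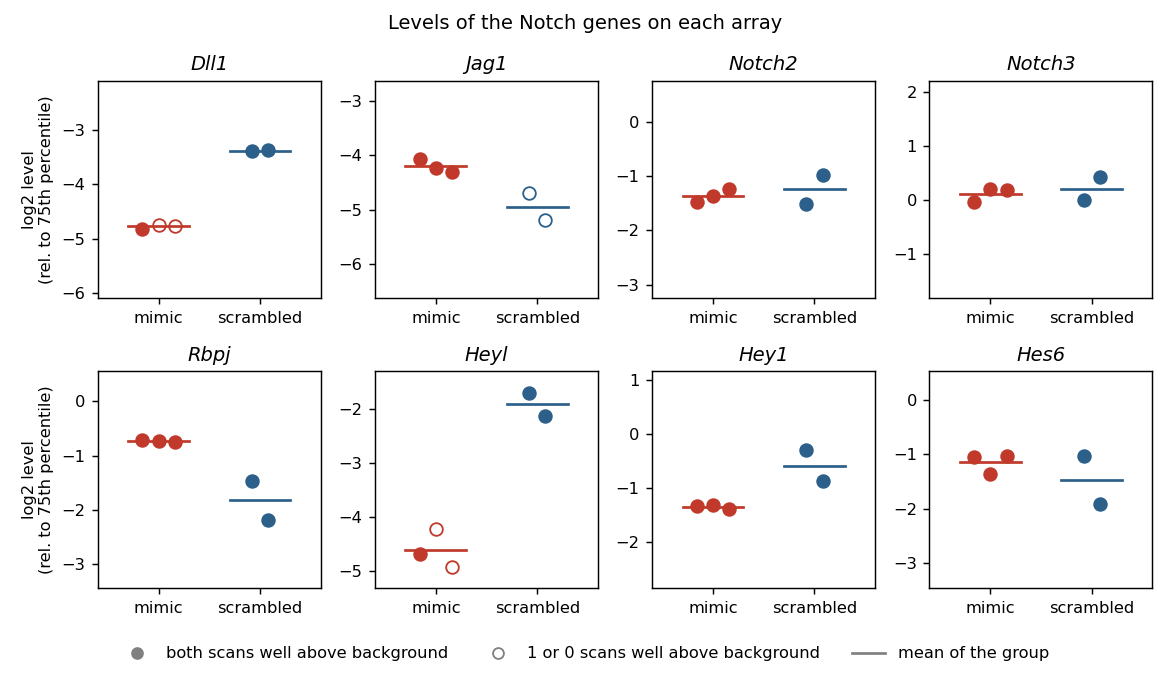
Log2 level (relative to the 75th percentile of the detected probes) of the 8 tested Notch genes on each of the 3 mimic arrays (left in each panel) and 2 scrambled arrays (right), with 1 point per array (filled where both scans were well above background, open otherwise) and a line at the mean of the group. Every panel spans the same 4 log2 units. The groups lie furthest apart for Heyl and Dll1, and they overlap for Notch2, Notch3 and Hes6.

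Heyl, a Notch target of the Hey family of repressors, had the largest difference among the 8. Its probe (chr4:122926975-122927034 on mm9, transcript NM_013905) was at -4.69, -4.23 and -4.92 on the mimic arrays and at -1.70 and -2.13 on the scrambled arrays. All mimic arrays lay below both scrambled arrays, by more than 2 log2 units at the closest pair. The mean was -4.61 ± 0.35 (SD, n = 3) after the mimic and -1.92 ± 0.30 (SD, n = 2) after the scrambled sequence. Heyl fell by 2.70 ± 0.25 (SE, log2, adjusted p = 0.0085), which is 6.48-fold lower, with a 95% interval of the difference from -3.32 to -2.07. In unscaled signal the mimic files held 86.3 to 135 (median 112) and the scrambled files 455 to 789 (median 601). The probe was well above background in 3 of 6 mimic files and in 4 of 4 scrambled files, so the size of the fall rests partly on mimic signals close to background. Without mimic array 1 the call was lost (adjusted p = 0.052) at a difference of -2.66. The call was also lost with no filter on dim probes (limma adjusted p = 0.070).

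Dll1, a transmembrane ligand that activates Notch receptors on neighbouring cells, fell by less but with a narrower spread. The probe of its transcript NM_007865 (chr17:15504623-15504682 on mm9) was at -4.81, -4.74 and -4.77 on the mimic arrays and at -3.39 and -3.37 on the scrambled arrays. The arrays of each group lay within 0.07 (mimic) and 0.02 (scrambled) of each other, and the groups were apart by over 1 log2 unit. Dll1 fell by 1.39 ± 0.13 (SE, log2, adjusted p = 0.0083), which is 2.63-fold lower, with a 95% interval from -1.71 to -1.08. The probe was well above background in 2 of 6 mimic files, both of mimic array 1, and in 4 of 4 scrambled files, so the size of the fall and its interval rest on mimic signals close to background. The call was lost without mimic array 1 (adjusted p = 0.070, difference -1.38) and without mimic array 2 (adjusted p = 0.054, difference -1.41). It was also lost with no filter on dim probes (limma adjusted p = 0.124) and with the deposited value table (limma adjusted p = 0.136). With normexp background correction (offset 50) the difference was -0.84 (adjusted p = 0.025), a factor of over 1.5 smaller.

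The Dll1 probe was spotted 10 times on every array, which shows the technical error within a file. Over the unmarked spots, 7 to 10 per file, the median signal was 77.4 to 113 in the mimic files and 194 to 239 in the scrambled files. The highest unmarked spot of any mimic file (151, mimic array 1) lay below the lowest of any scrambled file (177, scrambled array 2). Unmarked spots of the groups therefore did not overlap. Marked spots did, with a spot at 823 on mimic array 2 and another at 166 on scrambled array 2. The SD of log2 signal among repeated spots was 0.19 to 0.42 in mimic files and 0.10 to 0.19 in scrambled files. A second Dll1 probe, for another transcript, was well above background in no file.

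**Figure D2:**
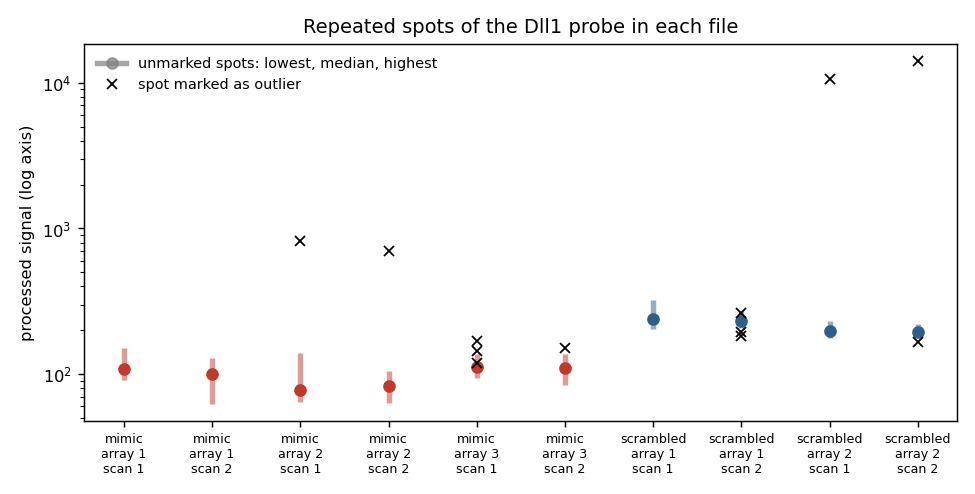
Processed signal (log axis) of the repeated spots of the Dll1 probe in each of the 10 files, mimic files left and scrambled files right. Bars span the lowest to the highest unmarked spot, points are medians and crosses are spots marked as outliers by the scanner software. The medians are 77.4 to 113 in mimic files and 194 to 239 in scrambled files, and the highest marked spots of scrambled array 2 read 10675 in the first scan and 14089 in the second.

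Jag1, the other ligand, differed in the opposite direction and did not pass. Its probe (chr2:136907433-136907492 on mm9) was at -4.06, -4.24 and -4.31 on the mimic arrays and at -4.69 and -5.20 on the scrambled arrays. All mimic arrays were above both scrambled arrays. The difference was 0.75 ± 0.20 (SE, adjusted p = 0.092), with a 95% interval from 0.26 to 1.23. The signal was weak, 112 to 220 in mimic files and 53.6 to 113 in scrambled files, and it was well above background in 6 of 6 mimic files and 1 of 4 scrambled files. The difference depended on the scan: it was 1.07 in the first scan (adjusted p = 0.039) and 0.42 in the second, and the 2 scans of scrambled array 1 differed by 0.76. It was 0.31 with normexp background correction (limma adjusted p = 0.246). It was 0.49 with scrambled array 2 left out and 0.997 with scrambled array 1 left out, each against a lone scrambled array.

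The receptors Notch2 and Notch3 showed no difference beyond the spread of the arrays. Notch3 was at -0.04, 0.20 and 0.18 on the mimic arrays and at -0.01 and 0.43 on the scrambled arrays, a difference of -0.10 ± 0.19 (SE, adjusted p = 0.764). Its 95% interval, -0.55 to 0.36, leaves room for a change of moderate size either way. Notch2 was at -1.47, -1.36 and -1.24 on the mimic arrays and at -1.51 and -0.97 on the scrambled arrays, with a difference of -0.12 ± 0.20 (adjusted p = 0.734) and an interval from -0.61 to 0.38. For both receptors the groups overlapped, with scrambled array 1 below at least 2 of the mimic arrays and scrambled array 2 above all of them. The sign of both differences turned with the scaling and with the array left out: they were 0.043 (Notch2) and 0.064 (Notch3) with the percentile taken over all probes, and 0.15 and 0.12 without scrambled array 2. A second Notch2 probe was well above background in no file. Notch1, a receptor of the same family that satellite cells are known to carry, had 2 probes. One was well above background in no file and the other in 1 mimic file, at a signal of 80.7 there, so Notch1 was not detectable by these probes and was not tested.

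Rbpj, the factor through which cut receptors reach DNA, was higher on every mimic array but did not pass. Its brighter probe (chr5:54048503-54048562 on mm9) was at -0.71, -0.74 and -0.75 on the mimic arrays and at -1.46 and -2.19 on the scrambled arrays. The mimic arrays lay within 0.04 of each other and the scrambled arrays 0.73 apart. The difference was 1.10 ± 0.23 (SE, adjusted p = 0.057), with a 95% interval from 0.53 to 1.66. The second Rbpj probe (chr5:54044777-54044836 on mm9), also above background in all 10 files, was at -3.58, -3.68 and -3.41 on the mimic arrays and at -4.45 and -3.90 on the scrambled arrays. It was higher on every mimic array too, by 0.62 on average, with the order of the scrambled arrays reversed. With the mean of both probes Rbpj passed, at 0.86 ± 0.13 (SE, limma adjusted p = 0.025). It passed in 10 of 19 alternative settings in all and was higher in all 19. The 10 include all fits on the single files, where 2 scans of a position enter separately, and both fits with a lone scrambled array. Such fits add no replicates, so the count overstates the support. RefSeq lists 3 Rbpj pseudogenes, and these probes may take up transcripts of such copies.

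Among the other genes of the Hes and Hey families, Hey1 was lower on every mimic array and Hes6 overlapped between the groups. Hey1, a second repressor of the Hey family, was at -1.33, -1.30 and -1.39 on the mimic arrays (chr3:8663432-8663491 on mm9) and at -0.30 and -0.87 on the scrambled arrays. The difference was -0.75 ± 0.20 (SE, adjusted p = 0.091), with a 95% interval from -1.24 to -0.27. The scrambled arrays were 0.56 apart, and the difference was -0.47 with scrambled array 1 left out and -1.04 with scrambled array 2 left out. Calls of Hey1 and Hes6 are not given for such fits, since the lone scrambled array is assumed to vary as the mimic arrays do. Hes6, a member of the family that is known to oppose Hes1 and to favour differentiation, was at -1.05, -1.36 and -1.03 on the mimic arrays (chr1:93308264-93308323 on mm9) and at -1.02 and -1.92 on the scrambled arrays. Its difference was 0.32 ± 0.29 (adjusted p = 0.501), with an interval from -0.38 to 1.03, and it was 0.77 without scrambled array 1 (adjusted p = 0.040) and -0.12 without scrambled array 2. Hes1, the classical target, had 1 probe (chr16:30067820-30067879 on mm9) that was well above background in no file, with signals of 17.1 to 44.8 in mimic files and 15.8 to 56.2 in scrambled files. No direction can be read from it, and it was not tested.

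**Figure D3:**
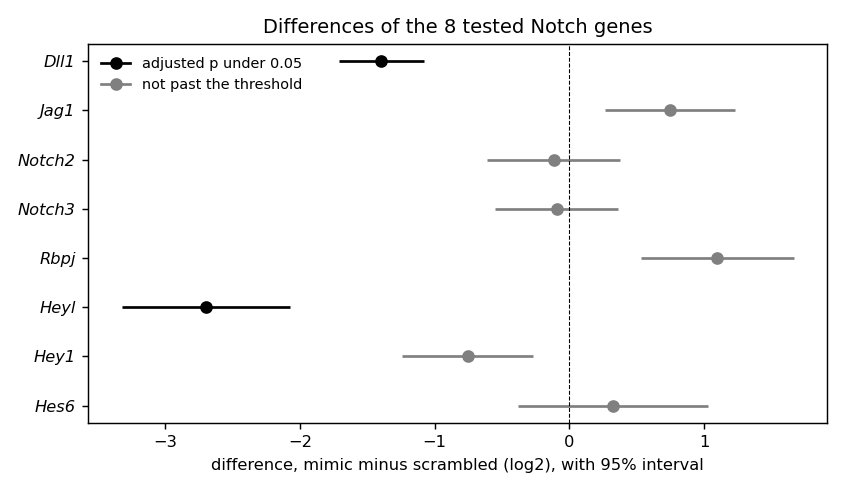
Difference (mimic minus scrambled, log2) of the 8 tested Notch genes with its 95% interval from limma, black where the adjusted p is under 0.05 and gray otherwise. Heyl (-2.70) and Dll1 (-1.39) are past the threshold, while the intervals of Jag1, Rbpj and Hey1 leave out 0 without passing after adjustment over all genes.

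Across the 8 tested genes, all mimic arrays lay below both scrambled arrays for 3 (Dll1, Hey1, Heyl) and above both for 2 (Jag1, Rbpj). Such separation was seen for 45.6% of all genes tested (25.8% below, 19.8% above), so the count is not particular to the Notch genes. The scrambled arrays were further apart than the 3 mimic arrays for 6 of the 8, all but Dll1 and Heyl, and for 62.4% of all genes tested. The 2 scans of an array differed by at most 0.26 for all of the 8 except Heyl (up to 0.51, mimic array 2) and Jag1 (up to 0.76). In a fit to each scan separately, the difference of Heyl was -2.66 in the first scan (limma adjusted p = 0.0062) and -2.73 in the second (0.015), and that of Dll1 was -1.34 (0.012) and -1.45 (0.0098).

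The arrays carried the markers of the labelled cell type, and a set of differentiation markers moved with the groups. Of 7 myoblast markers, 6 were well above background in all files, Myod1, Cdh15 and Des among them, and Myf5 in 1 mimic file. None of the 6 that were tested passed limma's threshold. Their summed linear level, in percent of the 75th percentile, was 2118, 2317 and 2290 on the mimic arrays, against 2792 and 3598 on the scrambled arrays. Of 6 myotube markers, all were detected and 4 fell (Myog, Mymk, Myh3 and Acta1). The summed level of the 6 on the same scale was 741, 796 and 602 on the mimic arrays, against 2135 and 2343 on the scrambled arrays. The 2 sets of sums did not overlap. Their part in the differences of Heyl and Dll1 was not tested. In RNA of a whole culture, fewer differentiating cells and less RNA per cell cannot be told apart. Markers that define vascular mural cells, in which Heyl and Notch3 are also known to be expressed, were not well above background in any file (Rgs5, Kcnj8, Abcc9 and Myh11), nor were the endothelial markers Pecam1, Cdh5, Tek, Tie1 and Emcn. Cspg4 and Notch3 of the mural list and Kdr of the endothelial list were well above background in all files and did not pass. The sum of the 6 mural markers was 121 to 142 on the mimic arrays, against 118 and 165 on the scrambled arrays. Most of this sum was Notch3 itself, at 97.4, 115 and 113 after the mimic, against 99.5 and 134. The mural sum therefore largely repeats the level of Notch3 and gives no separate reading of mural cells. The sum of the 6 endothelial markers was 20.3 to 26.3, against 22.0 and 20.4, and rests mainly on Kdr. Of 5 macrophage markers, 3 were well above background in some files and 2 of them in all files (Cd68 and Itgam). Of 5 fibroblast markers, 3 were so in some files and 0 in all. None of these macrophage and fibroblast markers passed. Of 5 neural markers, only Tubb3 was detected, and it fell (limma adjusted p = 0.039). None of 4 adipocyte markers was detected.

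The rest of the pathway was described through a list of 72 genes that includes the 10. Of these, 50 were tested, 3 fell, 0 rose under limma and 47 did not pass, against 13 lower and 3 higher at an unadjusted p under 0.05. Over all genes tested 5.12% passed (2.33% lower) and 25.3% had an unadjusted p under 0.05. With both directions pooled, 3 of the 50 passed and 16 had such a p, not far from genes at large. By direction the list leaned more to lower: of all 13137 genes tested, 1857 were lower and 1466 higher at that p. This lean was not tested. The median difference was -0.18, with 34 of 50 negative, and for all genes tested it was -0.05 with 54.8% negative. With the percentile taken over all probes, the median of all genes moved to 0.11, with 40.1% negative. The median of the list was then -0.02, with 27 of 50 negative. With the 10 Notch genes taken out of the list and the main scaling, 42 were tested, 1 fell, 0 rose under limma and 41 did not pass. At an unadjusted p under 0.05, 10 of these 42 were lower and 1 higher. Their median difference was -0.20, with 29 negative.

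Beside Heyl and Dll1, the gene that fell was Dtx4, a ubiquitin ligase of the Deltex family that acts on Notch receptors. It was at -2.95, -3.21 and -2.92 on the mimic arrays and at -1.55 and -1.24 on the scrambled arrays, with no overlap and signal well above background in all 10 files. It fell by 1.63 ± 0.17 (SE, log2, adjusted p = 0.0099), and the call was lost without mimic array 1 (adjusted p = 0.069) and without mimic array 2 (adjusted p = 0.054). Dtx4 also lost its call with no filter on dim probes (limma adjusted p = 0.111). Its relative Dtx3 was at -3.08, -3.27 and -2.71 on the mimic arrays and at -2.97 and -1.18 on the scrambled arrays, a difference of -0.94 ± 0.52 (SE, adjusted p = 0.299) that came from scrambled array 2, since scrambled array 1 lay among the mimic arrays. Dtx2 differed by 0.36 ± 0.21 (SE, adjusted p = 0.329), with overlap between the groups, and Dtx1 was well above background in no file.

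**Figure D4:**
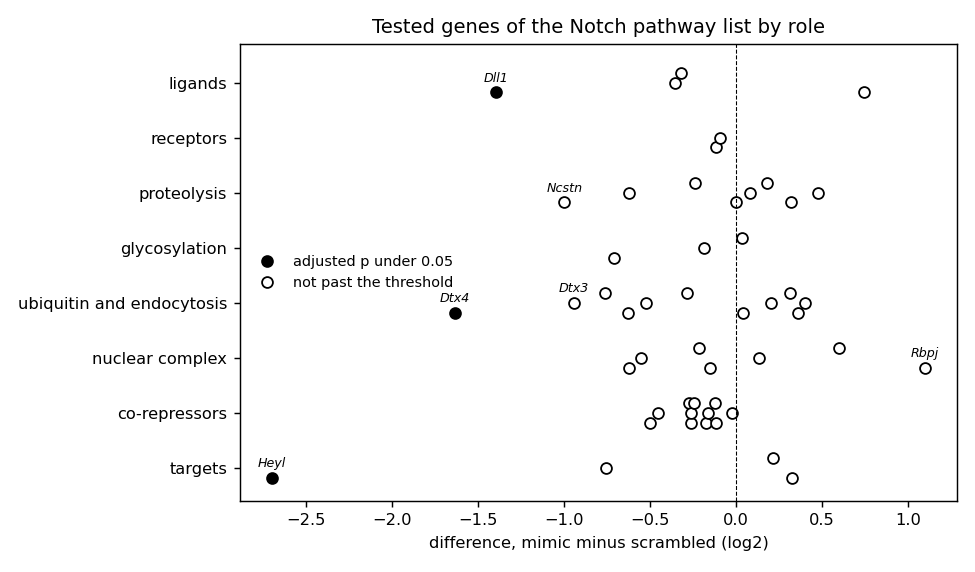
Difference (mimic minus scrambled, log2) of the 50 tested genes of the Notch pathway list, 1 point per gene, arranged by role. Filled points passed the threshold (Heyl, Dll1 and Dtx4, all lower), open points did not, and points are spread vertically within a role for visibility only.

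By role, 1 ligand and 1 gene of ubiquitination and endocytosis passed outside the nucleus. Among 4 tested ligands 1 fell (Dll1), and Jag2, a further Jagged ligand, was at -0.32 ± 0.26 (adjusted p = 0.472). Dll4, Dll3, Dlk1 and Dner were well above background in no file. None of 8 tested genes of receptor cleavage passed limma's threshold, and 2 were lower and 1 higher at an unadjusted p under 0.05. The one with the smallest p was Psen2, a catalytic subunit of gamma-secretase, at -0.62 ± 0.16 (adjusted p = 0.093). Among 11 tested genes of ubiquitination and endocytosis 1 fell (Dtx4). Mib1, which ubiquitinates ligands so that they can pull on the receptor, was at -0.63 ± 0.16 (limma adjusted p = 0.090). It was at -0.76 with scrambled array 1 left out and at -0.49 with scrambled array 2 left out. None of the 3 tested glycosyltransferases passed, with 1 lower at an unadjusted p under 0.05.

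In the nucleus, none of 7 tested genes of the activating complex passed limma's threshold, with 2 lower and 1 higher (Rbpj) at an unadjusted p under 0.05. The coactivator Maml3 was at -0.55 ± 0.15 (adjusted p = 0.102) and the acetyltransferase Kat2b at -0.62 ± 0.19 (adjusted p = 0.121). Kat2b depended on the scrambled arrays: it was -0.89 with scrambled array 1 left out and -0.36 with scrambled array 2 left out. With normexp background correction it was -0.39 (limma adjusted p = 0.190). All 11 tested co-repressor genes were negative, between -0.50 and -0.02, and none passed limma, with 1 at an unadjusted p under 0.05. That gene was Tle2 of the Groucho family, at -0.50 ± 0.14 (adjusted p = 0.098). With the percentile over all probes 8 of the 11 were negative, against 40.1% of all genes tested. With quantile normalisation 10 were, against 47.5%. Of the 10 genes listed under targets, Hes6 among them, 4 were tested. Hes7, a further Hes repressor, was at 0.21 ± 0.13 (adjusted p = 0.342), and Hes5, Hey2 and Nrarp were well above background in no file.

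The genes whose levels over the 5 arrays followed Heyl and Dll1 most closely were found as the smallest root-mean-square distance between levels centred on each gene's own mean, among 10496 genes well above background in all files. For Dll1 they were Ldb3, a Z-disc protein (distance 0.02), Asph, an aspartate hydroxylase (0.04), and Tnnt1, the slow troponin T (0.04). Ldb3 was at -2.77, -2.68 and -2.75 on the mimic arrays and at -1.36 and -1.29 on the scrambled arrays, a difference of -1.41. For Heyl they were Plac8 (distance 0.14), Mrln, a small regulator of the calcium pump (0.29), and Myom3, an M-band protein (0.30). Plac8 was at -3.47, -3.44 and -3.91 on the mimic arrays and at -0.66 and -1.19 on the scrambled arrays. The distances describe 5 arrays in which the group accounts for most of the pattern.

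Upstream sequence was available for 7 of the 10 genes in the RefSeq promoter table of GRCm38.p6, at 10 annotated starts. Hey1, Heyl and Hes1 had none and were not searched. The 250 bases before each start were searched on both strands for TGGGAA, the core of the RBPJ motif, and for CANNTG, the E box bound by myogenic and Hes-related factors. Neither pattern overlaps the other in the sequences shown. Across 32851 such windows of all genes, 21.6% held TGGGAA and 66.2% held CANNTG. Both starts of Dll1 are printed because Dll1 fell, and 1 of the 2 starts of Rbpj because it was the only one of the 7 with the core of the motif that its own product binds. Capitals mark matches to either pattern on either strand, and each sequence reads 5′ to 3′ on the strand of its gene.
Dll1 start 1, chr17:15375824-15376073, minus strand: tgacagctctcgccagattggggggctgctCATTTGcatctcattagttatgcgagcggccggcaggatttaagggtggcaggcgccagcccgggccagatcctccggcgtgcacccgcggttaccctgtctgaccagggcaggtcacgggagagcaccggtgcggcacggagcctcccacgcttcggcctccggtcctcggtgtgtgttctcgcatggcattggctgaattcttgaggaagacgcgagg
Dll1 start 2, chr17:15376933-15377182, minus strand: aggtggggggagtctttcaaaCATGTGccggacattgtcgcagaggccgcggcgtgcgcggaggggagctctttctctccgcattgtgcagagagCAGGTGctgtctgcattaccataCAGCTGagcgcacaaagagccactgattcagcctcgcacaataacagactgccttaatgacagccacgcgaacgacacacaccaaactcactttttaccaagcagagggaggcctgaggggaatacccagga
Rbpj start 1, chr5:53590096-53590345, plus strand: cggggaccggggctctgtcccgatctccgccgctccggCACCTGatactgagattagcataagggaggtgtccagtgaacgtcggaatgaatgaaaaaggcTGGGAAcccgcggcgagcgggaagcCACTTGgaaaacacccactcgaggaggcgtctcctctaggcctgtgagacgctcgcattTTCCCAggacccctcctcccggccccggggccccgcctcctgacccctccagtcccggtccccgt
The window of Dll1 start 2 held 3 E boxes and that of start 1 held 1, with no TGGGAA in either. The Rbpj window held 2 matches to TGGGAA, 1 on each strand, and 2 E boxes. The window of the other Rbpj start overlaps it and held 1 match to TGGGAA. The longer form GTGGGAA was also searched and was in none of the 10 windows, against 5.4% of all windows. E boxes were also present before both starts of Hes6 (3 and 1) and before Jag1 (1), and before none of Notch1, Notch2 and Notch3. These matches describe the letters of the windows and do not show binding.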

How the data were processed

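Per the file headers, the intensity of each spot is the background-subtracted, detrended linear signal written by Agilent Feature Extraction 12.0.0.7, with probe positions on mm9. The submitters' processing notes give another version of it, 10.7.3.1. The deposited value table holds 1 intensity per probe and was an alternative only. Its values are linear with most dim probes empty, and values of equal rank were nearly the same in all 10 columns (the 10000th highest was 317 to 320.4), a pattern that quantile normalisation gives, although no header or label records that step. Columns that flag a spot as well above background or as an outlier came, per the file headers, from the same software.

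Control spots and spots marked as outliers were left out, log2 signals of repeated spots averaged, and the 75th percentile over the 12903 probes above background in all files subtracted, since under 50% of probes were detected. Probes above background in at least 4 files were kept, and the brightest probe stood for a gene (13181 genes, 44 left out for missing values). A probe counted as above background where more than 50% of its unmarked spots were. Probes were named by transcript accession through RefSeq of GRCm38.p6 (28026), by symbol (3418), by older symbol (295) or as in the file (23942). The 3 mimic arrays were set against the 2 scrambled arrays by lmFit and eBayes of limma 3.58.1 (R 4.3.3), where the residual degrees of freedom were 3 and the prior ones 2.92, and p-values were adjusted over all genes by the Benjamini-Hochberg method. On simulated arrays of the mimic against scrambled comparison with 13137 genes, 98 of 100 genes changed by 2 log2 units and 47 of 100 changed by 1 were called, with 7 false calls. The simulated errors were independent for each gene, without shifts shared by a whole array, so these shares may not hold for the real arrays. The text names all 10 Notch genes, every listed pathway gene past the threshold, the 8 others with the smallest p and the 3 nearest genes for each Notch gene past the threshold. Further genes (Dtx1, Dtx2, Dtx3, Jag2, Hes7 and those not detected) were named after their values were seen. Members and lists were chosen with earlier results of these data known.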

Additional observations from a re-analysis of the deposited data

How the results depend on the processing

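Over all 13137 genes tested, 672 passed the threshold (306 lower, 366 higher), against 234 lower and 503 higher with the percentile over all probes. Leaving out 1 array gave 47 to 4350 genes, with 0 to 6 of the Notch genes (main count 2) and 0 to 19 of the pathway list (main count 3). The lowest counts came without mimic array 1 (5 Notch genes and 9 of the list at an unadjusted p under 0.05) and the highest without scrambled array 1. Without scrambled array 2 the counts were 561, 4 and 5, and without mimic array 2 they were 79, 1 and 1. With no filter on dim probes, which raised the number tested to 34474, limma called 17 genes, 0 Notch genes and 0 of the list (2822, 5 and 11 at an unadjusted p under 0.05). Taken as 10 separate arrays the files gave 4515, 5 and 19. With the label's replicate number as a replicate block on the 10 files the counts were 1950, 4 and 9, and 1465, 4 and 10 when scan was a block and position a random one. Same-numbered samples did not pair, with correlations of their deviations of 0.38, -0.04, -0.35 and -0.10 for numbers 1 to 4. Of these, only mimic sample 1 correlated best with its own number. Mimic samples 2, 3 and 4 correlated best with scrambled samples 1, 2 and 3. The deposited value table called 1 Notch gene (Heyl), and restriction to probes above background in all files called 1 (Rbpj, with Heyl and Dll1 no longer tested). Signs turned with the percentile over all probes for Notch2 (0.043) and Notch3 (0.064), and without scrambled array 2 for both and for Hes6. Leaving out 1 array gave -0.39 to 0.15 for Notch2, -0.31 to 0.12 for Notch3 and -0.12 to 0.77 for Hes6. Over 18 alternatives Heyl ranged from -2.91 to -1.80 and kept its call in 16, and Dll1 from -2.35 to -0.84 and kept it in 14. The alternatives include fits that take 2 scans of a position as separate arrays. They also include fits on a lone scrambled array, which has no spread of its own. The cause of the other changes was not tested. The number of arrays limits the precision, and the weak signals of Dll1, Heyl and Jag1 lie near the background.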

Other observations

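Dll1 had a different value in the deposited value table. There the scrambled files of array 2 held 1298 and 1893, against 230 and 261 for scrambled array 1 and 88.9 to 181 for the mimic files. On scrambled array 2, 1 of the 10 spots of the Dll1 probe in each scan was marked as non-uniform and read far above the rest (10675 in the first scan and 14089 in the second), while the unmarked spots had medians of 197 and 194. The plain mean of all 10 spots was 1246 and 1584 in these files. On mimic array 2, a marked spot read 823 and 704 beside medians of 77.4 and 82.5, and the table held 175 and 181. In the table Dll1 was at -2.35 ± 0.77 (SE, log2, limma adjusted p = 0.136), while without the marked spots it was at -1.39 ± 0.13. With marked spots kept but averaged as log2 values, an alternative chosen after seeing the data, it was at -1.55 ± 0.23 (limma adjusted p = 0.028). Across its 18 alternatives the limma adjusted p of Dll1 ran from 1.3e-06 to 0.136. The lowest came from the 10 files taken as separate arrays, which counts 2 scans of a position as replicates.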
